A study of Mus musculus with 12 samples.

Results

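NF-kappaB is a family of transcription factors made of dimers of the products of 5 genes, Rela, Rel, Relb, Nfkb1 and Nfkb2. In resting cells inhibitor proteins of the IkB family hold the dimers in the cytoplasm. Signals from tumour necrosis factor, interleukin and microbial sensors lead to the breakdown of the inhibitor, and the freed dimers bind kappaB sites in DNA. Nfkbia and Tnfaip3 are among the genes switched on in this way, and their products turn the pathway down again. In blood stem cells the pathway is known as a route by which inflammatory signals act. The 10 genes described here were chosen as named members of the pathway: the 5 subunit genes, the inhibitor and feedback genes Nfkbia, Nfkbiz and Tnfaip3, and the target genes Tnf and Icam1. They are 10 of the 20696 genes with at least 1 read, and all 10 passed the filter on low counts that left 15012 genes for testing.

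RNA came from sorted mouse bone marrow cells that lacked lineage markers and Flk2 and carried Sca-1 and Kit, the fraction that holds the blood stem cells. There were 12 libraries of polyA RNA, 3 for each of 4 genotypes, and each library had a mouse number of its own. Mdmx-Tg/Pu.1-URE-/- mice carried an Mdmx transgene and lacked the upstream regulatory element (URE) of the gene for the blood transcription factor PU.1, Pu.1-URE-/- mice lacked the element alone, Mdmx-Tg mice carried the transgene alone, and Wild-type mice had neither. Mdmx, gene symbol Mdm4, encodes an inhibitor of p53, and the gene for PU.1 has the symbol Spi1. Strain, age and the promoter that drives the transgene are not given in the sources used here. No other treatment is named.

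Each library held 47231506 to 55030235 reads assigned to annotated genes. Levels are given as CPM, the reads per 1000000 after scaling by TMM factors. Mdm4 had 163 to 353 CPM in Mdmx-Tg/Pu.1-URE-/-, 56.2 to 93.9 CPM in Pu.1-URE-/-, 163 to 535 CPM in Mdmx-Tg libraries, and 35.8 to 77.9 CPM in Wild-type libraries, so the transgenic libraries were above the others. Spi1 had 0.0198 to 3.48 CPM in Mdmx-Tg/Pu.1-URE-/-, 8.73 to 23.9 CPM in Pu.1-URE-/-, 3.69 to 21.6 CPM in Mdmx-Tg libraries, and 5.34 to 38.0 CPM in Wild-type libraries, and the Pu.1-URE-/- range lay within that of Wild-type. Immunoglobulin genes took up to 31.2% of the reads, in Wild-type 1, and Y-linked RNA was high in 3 libraries, 2 of Mdmx-Tg/Pu.1-URE-/- and 1 of Wild-type. All 9 listed markers of the sort and of stem cells were detected in every library, with Kit at 164.7 to 261 CPM in Mdmx-Tg/Pu.1-URE-/-, 171 to 228 CPM in Pu.1-URE-/-, 270 to 325 CPM in Mdmx-Tg libraries, and 274 to 328 CPM in Wild-type libraries. Flt3, which encodes the Flk2 that the sort selected against, was detected too, at up to 53.7 CPM.

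None of the 10 genes changed with genotype at an adjusted p under 0.05 in edgeR's quasi-likelihood test, in any of 8 comparisons. At an unadjusted p under 0.05 there was 1 value among 80, Nfkbia in Mdmx-Tg/Pu.1-URE-/- against Pu.1-URE-/-. DESeq2 and limma-voom also called none of the 10, although DESeq2 called 329 genes in Mdmx-Tg against Wild-type and 329 in Mdmx-Tg/Pu.1-URE-/- against Pu.1-URE-/-, where edgeR called 0. Over all 15012 genes the same test called 4.71% in Pu.1-URE-/- against Wild-type, 2.32% in Mdmx-Tg/Pu.1-URE-/- against Mdmx-Tg, 3.34% in Mdmx-Tg/Pu.1-URE-/- against Wild-type and 11.9% for the mean effect of element loss over both backgrounds. It called 0% in Mdmx-Tg against Wild-type, in Mdmx-Tg/Pu.1-URE-/- against Pu.1-URE-/-, for the mean effect of the transgene and for the interaction. Read against these shares, 0 of 10 genes is near the background. An unadjusted p under 0.05 was reached by 19.8% of all genes in Pu.1-URE-/- against Wild-type, 16.9% in Mdmx-Tg/Pu.1-URE-/- against Mdmx-Tg, 26.9% for element loss over both backgrounds, 10.5% in Mdmx-Tg against Wild-type, 10.7% in Mdmx-Tg/Pu.1-URE-/- against Pu.1-URE-/-, 16.3% for the transgene over both backgrounds, 18.5% in Mdmx-Tg/Pu.1-URE-/- against Wild-type and 5.8% for the interaction. Groups whose 3 libraries did not overlap occurred for 2 of the 10 genes in Pu.1-URE-/- against Wild-type, where 29.7% of all genes were separated in this way, and for 3 in Mdmx-Tg/Pu.1-URE-/- against Pu.1-URE-/- (18.8% of all genes). They occurred for 1 gene in Mdmx-Tg/Pu.1-URE-/- against Mdmx-Tg (19.2%), 1 in Mdmx-Tg against Wild-type (13.7%) and 1 in Mdmx-Tg/Pu.1-URE-/- against Wild-type (26%).

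**Figure D1:**
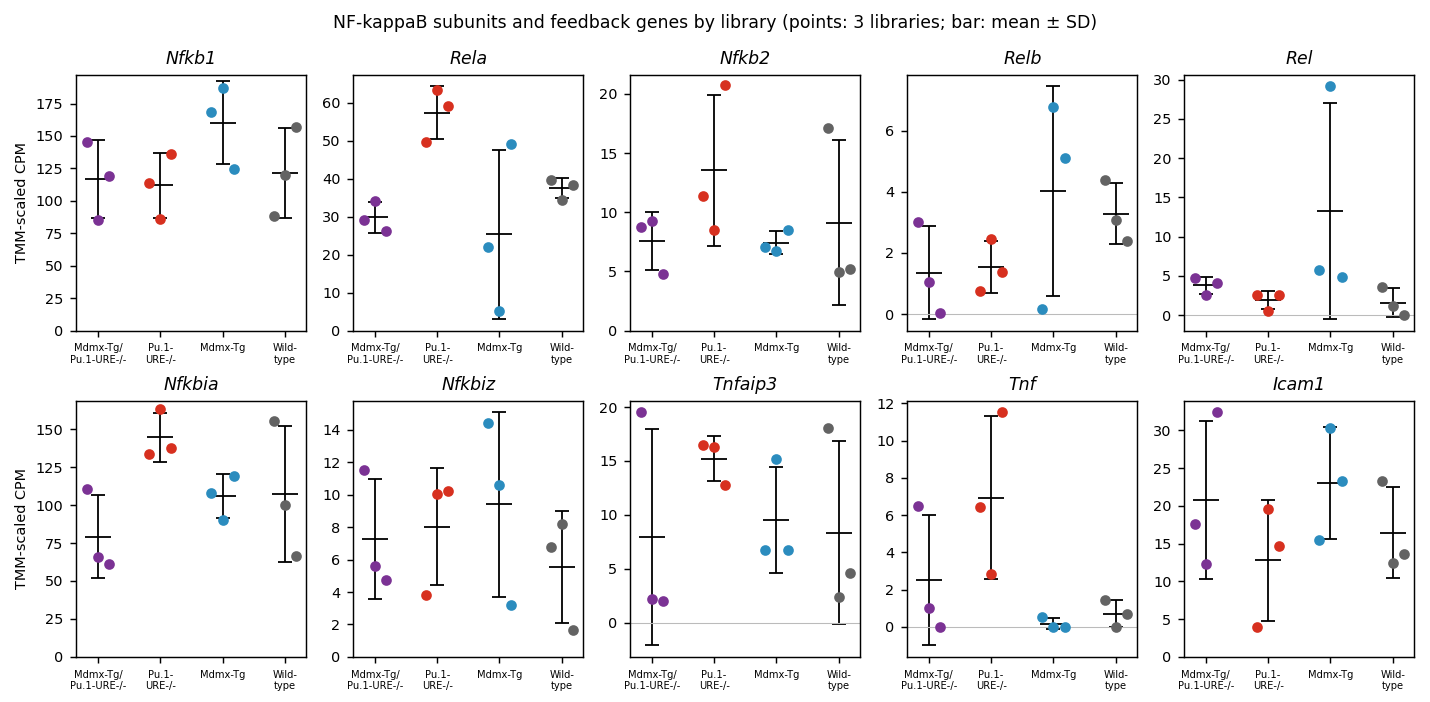
Level of each of the 10 genes in every library, in TMM-scaled CPM on linear axes, with the genotypes Mdmx-Tg/Pu.1-URE-/-, Pu.1-URE-/-, Mdmx-Tg and Wild-type from left to right; points are the 3 libraries of a genotype and bars the mean ± SD. Rela lies at 49.7 to 63.4 CPM in the 3 Pu.1-URE-/- libraries, above the other 9, and a single Mdmx-Tg library at 29.2 CPM sets the mean of Rel.

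Rela encodes p65, the subunit that activates transcription in most of the dimers that respond to inflammatory signals (chromosome 19, 5637483 to 5648130, GRCm38). It had 29.1, 34.1 and 26.2 CPM in Mdmx-Tg/Pu.1-URE-/-, 49.7, 63.4 and 59.2 CPM in Pu.1-URE-/-, 21.9, 5.10 and 49.1 CPM in Mdmx-Tg libraries, and 39.6, 34.5 and 38.4 CPM in Wild-type libraries. In CPM every Pu.1-URE-/- library lay above every library of the other 3 genotypes, with Mdmx-Tg 3 just below them. Every Mdmx-Tg/Pu.1-URE-/- library lay below every Wild-type library in CPM, and the other 2 Mdmx-Tg libraries were the lowest of all. The deposited TPM values, which are per length, did not keep this order. Wild-type 3, at 19.6 TPM, was above Pu.1-URE-/- 1, at 19.0 TPM. Wild-type 1, at 8.45 TPM, was below Mdmx-Tg 1, at 9.76 TPM, and below the Mdmx-Tg/Pu.1-URE-/- libraries, at 10.8 to 13.9 TPM. The modelled log2 change was 0.61 (SE 0.55) in Pu.1-URE-/- against Wild-type, with an adjusted p of 0.628 from edgeR. In Mdmx-Tg/Pu.1-URE-/- against Pu.1-URE-/- it was -0.95 (SE 0.56), with an adjusted p of 0.567 from edgeR. The spread that both tests share includes Mdmx-Tg 2, the library at 5.10 CPM. Without it the SE of both changes was 0.28, and edgeR's adjusted p-values were 0.248 and 0.338. With only the 2 genotypes compared in the fit the SE was 0.17 for Pu.1-URE-/- against Wild-type, with an adjusted p of 0.0867 from edgeR. That was the lowest of 25 other settings of edgeR, DESeq2 and limma-voom, in which the adjusted p reached 0.796. For Mdmx-Tg/Pu.1-URE-/- against Pu.1-URE-/- the adjusted p ran over 0.289 to 0.917 in the same settings. In bulk RNA, fewer cells of a type and less RNA per cell cannot be told apart.

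Nfkb1 encodes p105, which is processed to the DNA-binding subunit p50 (chromosome 3, 135584655 to 135691547). Its level was 145, 85.3 and 120 CPM in Mdmx-Tg/Pu.1-URE-/-, 114, 86.0 and 136 CPM in Pu.1-URE-/-, 169, 187 and 125 CPM in Mdmx-Tg libraries, and 88.1, 120 and 157 CPM in Wild-type libraries. All 4 genotypes overlapped. The mean effect of element loss over both backgrounds was a log2 change of -0.29 with a 95% interval of -0.72 to 0.15, and that of the transgene was 0.23 with an interval of -0.21 to 0.66. Nfkb1 was the most tightly measured of the 10 genes: in 5 of the 8 comparisons its whole 95% interval lay within a 2-fold change. The same held for Nfkbia in 3 comparisons and for the other 8 genes in 0, so for those 8 a change of 2-fold was not excluded by these libraries.

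Rel encodes c-Rel, a subunit known for its roles in lymphocytes (chromosome 11, 23736847 to 23770970). It had 4.70, 2.60 and 4.06 CPM in Mdmx-Tg/Pu.1-URE-/-, 2.58, 0.60 and 2.58 CPM in Pu.1-URE-/-, 5.81, 29.2 and 4.90 CPM in Mdmx-Tg libraries, and 3.61, 1.22 and 0 CPM in Wild-type libraries. The 0 reads of Wild-type 3 allow a level of up to 0.0459 CPM, the value of 3 reads there, and such limits cover counting error only. Each Mdmx-Tg library was above each Wild-type library and above each Mdmx-Tg/Pu.1-URE-/- library, and each Mdmx-Tg/Pu.1-URE-/- library was above each Pu.1-URE-/- library, although the closest of these differed only at the second decimal. The log2 change was 3.05 (SE 1.48) in Mdmx-Tg against Wild-type, with an adjusted p of 0.496 from edgeR, and 1.73 without Mdmx-Tg 2, with an adjusted p of 0.876. In Mdmx-Tg/Pu.1-URE-/- against Mdmx-Tg it was -1.81 (SE 1.41), and -0.50 without Mdmx-Tg 2. With each library left out in turn, the change ran over 1.73 to 4.43 in Mdmx-Tg against Wild-type. In Mdmx-Tg/Pu.1-URE-/- against Mdmx-Tg it ran over -2.28 to -0.50. Both sizes were thus nearest 0 without Mdmx-Tg 2, and the first also rose well above 3.05 without another library. In CPM the order of the groups held with the other 2 Mdmx-Tg libraries. In the deposited TPM values Mdmx-Tg 3, at 0.599, was below Mdmx-Tg/Pu.1-URE-/- 1, at 0.735.

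Nfkb2 and Relb encode the subunits of the alternative pathway, p100, which is processed to p52, and RelB. Nfkb2 (chromosome 19, 46304320 to 46312385) had 8.76, 9.23 and 4.80 CPM in Mdmx-Tg/Pu.1-URE-/-, 11.4, 8.54 and 20.7 CPM in Pu.1-URE-/-, 7.07, 6.71 and 8.52 CPM in Mdmx-Tg libraries, and 17.2, 4.99 and 5.25 CPM in Wild-type libraries. Relb (chromosome 7, 19606217 to 19629438) had 2.99, 1.04 and 0.02 CPM in Mdmx-Tg/Pu.1-URE-/-, 0.76, 2.45 and 1.38 CPM in Pu.1-URE-/-, 0.17, 6.77 and 5.11 CPM in Mdmx-Tg libraries, and 4.38, 3.07 and 2.40 CPM in Wild-type libraries. For both genes 1 library of a genotype differed several-fold from the others of the same genotype, and no comparison of Nfkb2 or Relb was free of overlap. The lowest Relb value is 1 read, so its 95% intervals were among the widest, and the log2 change for element loss over both backgrounds was -1.34 with an interval of -3.54 to 0.87. Nfkb2 shares 299 bases at its 3′ end with Psd on the opposite strand, a gene with 0 to 164 reads per library, and whether the counts used strand is not given in the sources used here.

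**Figure D2:**
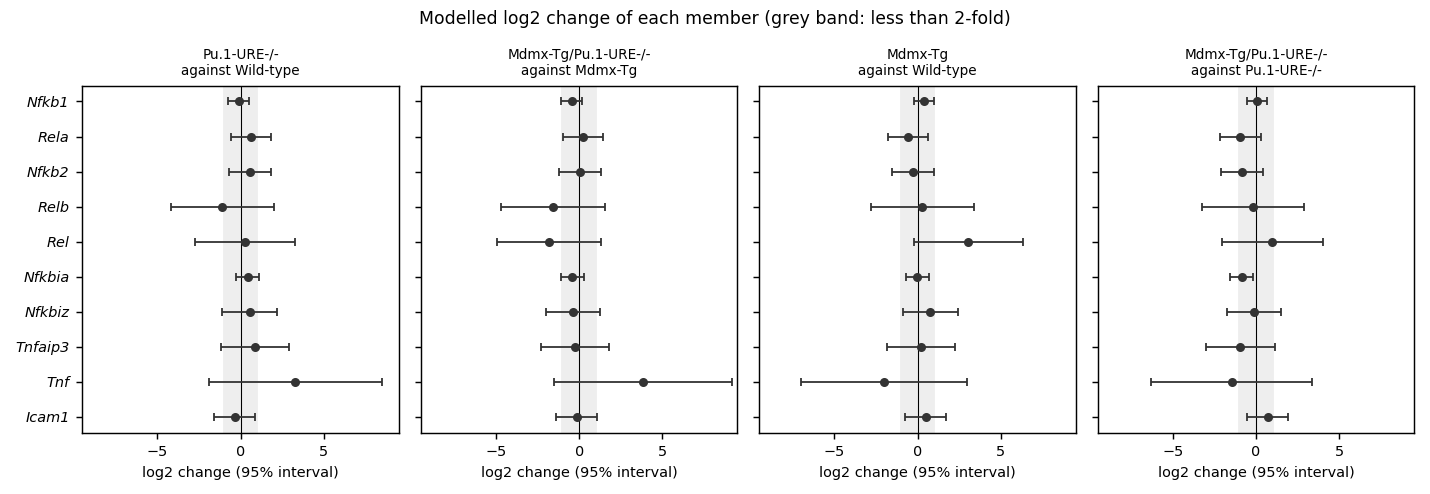
Modelled log2 change of each gene with its 95% interval in 4 comparisons, 1 per panel; positive values mean higher in the genotype named first, and the grey band marks changes of less than 2-fold. In the panel of Mdmx-Tg/Pu.1-URE-/- against Pu.1-URE-/- the interval of Nfkbia, -1.56 to -0.18, does not reach 0, and the intervals of Tnf, Rel and Relb are the widest in every panel.

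Levels of different genes can be compared only per length, for which the deposited TPM values, summed per gene, were used. The mean over the 12 libraries was 109 TPM for Nfkbia, 62.2 TPM for Nfkb1, 14.8 TPM for Rela, 7.60 TPM for Icam1, 2.75 TPM for Nfkb2, 2.54 TPM for Nfkbiz, 2.37 TPM for Tnfaip3, 1.78 TPM for Tnf, 1.35 TPM for Relb and 0.654 TPM for Rel. Nfkb1 was above Rela in 12 of 12 libraries, Rela above Icam1 in 10, Icam1 above Nfkb2 in 10 and Nfkbia above Nfkb1 in 9. Nfkb2, Nfkbiz and Tnfaip3 differed by less than the spread between libraries, with Nfkb2 above Nfkbiz in 6 libraries and Nfkbiz above Tnfaip3 in 5. Tnf was likewise above Relb in 6 libraries.

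Counted over all annotated transcripts, coding or not, Nfkb1 made up most of the subunit TPM. Its share of the summed TPM of the 5 subunit genes averaged 78.2% in Mdmx-Tg/Pu.1-URE-/-, 64.8% in Pu.1-URE-/-, 81.9% in Mdmx-Tg and 73.5% in Wild-type libraries. The share of Rela averaged 16.6% in Mdmx-Tg/Pu.1-URE-/-, 28.9% in Pu.1-URE-/-, 11.4% in Mdmx-Tg and 19.9% in Wild-type libraries. Over single libraries the share of Nfkb1 ran over 59.1% to 88.7% and that of Rela over 1.93% to 35.6%. The ratio of Nfkb1 to Rela TPM was 5.85, 3.19 and 6.09 in Mdmx-Tg/Pu.1-URE-/-, 2.65, 1.66 and 2.65 in Pu.1-URE-/-, 9.48, 45.8 and 3.01 in Mdmx-Tg and 2.57, 4.001 and 5.02 in Wild-type libraries. All 3 Mdmx-Tg/Pu.1-URE-/- ratios were above the 3 Pu.1-URE-/- ratios, whereas Wild-type 1 lay within the Pu.1-URE-/- range. These ratios are a description and were not tested.

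**Figure D3:**
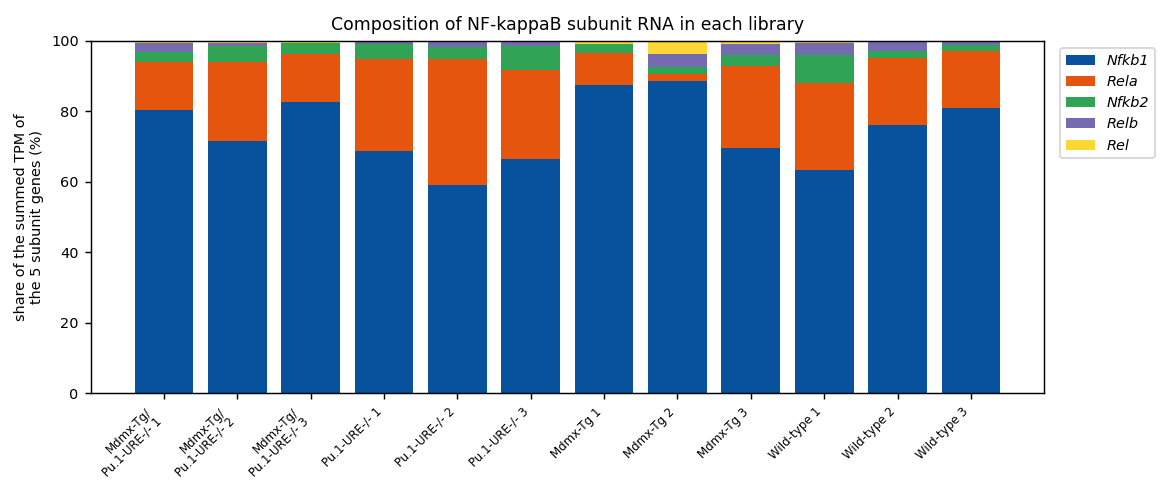
Share of each of the 5 subunit genes in their summed TPM, as stacked bars that add up to 100% in each of the 12 libraries, ordered Mdmx-Tg/Pu.1-URE-/-, Pu.1-URE-/-, Mdmx-Tg and Wild-type from left to right. Nfkb1 holds 59.1% to 88.7% in every library, and Rela is at its lowest, 1.93%, in Mdmx-Tg 2, the library in which Rel is visible as a separate band.

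The Nfkb1 values carry a limit of their own. Of its estimated reads, 89.0% to 99.6% per library, with a median of 94.7%, were assigned to 5 transcripts that lie between 135584655 and 135608483, in the 3′ part of the gene. The retained-intron transcript Nfkb1-202 took 45.2% of all Nfkb1 reads, the nonsense-mediated decay transcript Nfkb1-207 took 27.0% and the shorter coding transcript Nfkb1-203 took 22.4%. The full-length coding transcript Nfkb1-201, with 25 exons, took 1.29%. These transcripts are shorter than Nfkb1-201, so the TPM of Nfkb1 is larger than its reads over the full coding length would give. Per kilobase of the longest coding transcript, with all reads counted, the mean was 30.99 CPM for Nfkb1 and 13.8 CPM for Rela. On that measure Nfkb1 was above Rela in 11 of 12 libraries. The main coding transcripts alone did not keep this order. Nfkb1-203 had 4.55 to 20.1 TPM and Rela-201 had 1.80 to 27.7 TPM. Nfkb1-203 was above Rela-201 in Wild-type 2, Mdmx-Tg 1 and 2, and Mdmx-Tg/Pu.1-URE-/- 1 and 3, and below it in all other libraries.

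Nfkbia encodes IkB-alpha, the inhibitor that is broken down on signalling and resynthesised by NF-kappaB itself (chromosome 12, 55489410 to 55492647). It had 111, 66.0 and 60.9 CPM in Mdmx-Tg/Pu.1-URE-/-, 133, 163 and 137 CPM in Pu.1-URE-/-, 108, 90.2 and 119 CPM in Mdmx-Tg libraries, and 156, 100 and 66.7 CPM in Wild-type libraries. Every Mdmx-Tg/Pu.1-URE-/- library was below every Pu.1-URE-/- library, and Wild-type, at 66.7 to 156 CPM, overlapped both. The log2 change in Mdmx-Tg/Pu.1-URE-/- against Pu.1-URE-/- was -0.87 (SE 0.31), with a 95% interval of -1.56 to -0.18. Its unadjusted p in edgeR was 0.0177 and its adjusted p 0.408, where 10.7% of all genes had an unadjusted p under 0.05. The interaction of transgene and element loss was -0.85 (SE 0.44), with an adjusted p of 0.881 from edgeR, so a different response to the transgene in the 2 backgrounds was not shown. Over both backgrounds the mean effect of element loss on Nfkbia was a log2 change of 0.0053 with an interval of -0.48 to 0.49. It averages changes of opposite sign, 0.43 in Pu.1-URE-/- against Wild-type and -0.42 in Mdmx-Tg/Pu.1-URE-/- against Mdmx-Tg. Their adjusted p-values from edgeR were 0.520 and 0.565.

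Tnfaip3 encodes A20, a ubiquitin-editing enzyme that ends signalling upstream of the inhibitor (chromosome 10, 19000910 to 19015657). It had 19.5, 2.23 and 2.04 CPM in Mdmx-Tg/Pu.1-URE-/-, 16.5, 16.3 and 12.8 CPM in Pu.1-URE-/-, 6.73, 15.1 and 6.69 CPM in Mdmx-Tg libraries, and 18.04, 2.40 and 4.63 CPM in Wild-type libraries. The 3 Pu.1-URE-/- libraries were close together, but Mdmx-Tg/Pu.1-URE-/- 1 and Wild-type 1 were above all of them. Nfkbiz encodes IkB-zeta, a nuclear member of the IkB family that acts on a subset of target genes (chromosome 16, 55811375 to 55838899). Its level was 11.5, 5.58 and 4.74 CPM in Mdmx-Tg/Pu.1-URE-/-, 3.84, 10.03 and 10.2 CPM in Pu.1-URE-/-, 14.4, 10.6 and 3.17 CPM in Mdmx-Tg libraries, and 6.77, 8.22 and 1.65 CPM in Wild-type libraries. All groups overlapped for both genes. The log2 change for element loss over both backgrounds was 0.30 (interval -1.14 to 1.74) for Tnfaip3 and 0.08 (interval -1.07 to 1.24) for Nfkbiz.

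Immediate early genes varied between libraries of a genotype, and their values stand here beside those of the feedback genes. The 21 immediate early and cell-handling genes, which rise within minutes of stimulation or cell handling, summed to 1222, 351.8 and 645 CPM in Mdmx-Tg/Pu.1-URE-/-, 1162, 1810 and 2356 CPM in Pu.1-URE-/-, 2422, 1202 and 481 CPM in Mdmx-Tg libraries, and 1902, 1189 and 379 CPM in Wild-type libraries. Wild-type 1 led its genotype in this sum, in Nfkbia and in Tnfaip3, and Mdmx-Tg/Pu.1-URE-/- 1 led its genotype in all of these and in Nfkbiz. In the other 2 genotypes the leading library in this sum was not the leading one in Nfkbia or Tnfaip3, and it led in Nfkbiz. Of the list, 15 to 21 genes were detected per library, and none of the 18 tested passed the test in any comparison. In Mdmx-Tg/Pu.1-URE-/- against Pu.1-URE-/-, the comparison of the Nfkbia difference, 0 of the 18 had a positive log2 change and their median was -1.20, against 0.01 over all genes. For the interaction 2 of 18 were positive, with a median of -1.68 against 0.03 over all genes. The part of these genes in the Nfkbia difference between Mdmx-Tg/Pu.1-URE-/- and Pu.1-URE-/- was not tested.

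**Figure D4:**
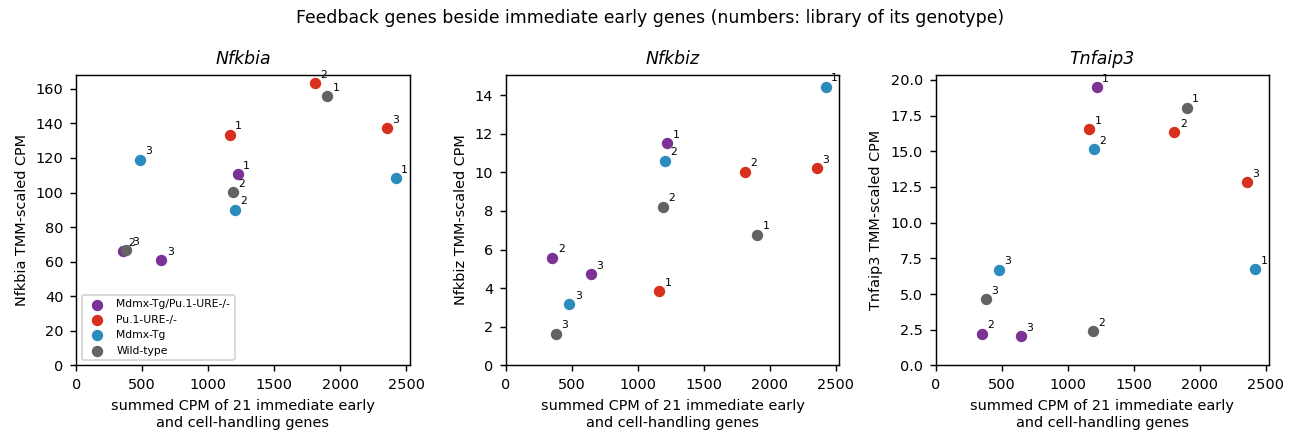
Level of Nfkbia, Nfkbiz and Tnfaip3 (TMM-scaled CPM, vertical axes) against the summed level of 21 immediate early and cell-handling genes (CPM, horizontal axes), all axes linear and starting at 0; each point is 1 of the 12 libraries, coloured by genotype and numbered within it. Mdmx-Tg/Pu.1-URE-/- 2 and Wild-type 3, at 351.8 and 379 CPM on the horizontal axis, are low in Nfkbia, at 66.0 and 66.7 CPM, but Mdmx-Tg 3, next on that axis at 481 CPM, has 119 CPM, and the lowest Nfkbia, 60.9 CPM, is in Mdmx-Tg/Pu.1-URE-/- 3 at 645 CPM.

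Several of the 10 genes are known targets of NF-kappaB, so the DNA before their starts was searched for kappaB patterns. Promoter windows of RefSeq (GRCm38.p6), cut to the 250 bases before each transcript start, were matched to 7 of the 10 genes, with 3 starts for Nfkb2 and 2 for Tnfaip3. Nfkb1, Relb and Nfkbiz had no entry. The window of Nfkbia (chr12:55492648-55492897, minus strand) is printed in full because this gene is the inhibitor, with capitals for matches to the kappaB pattern GGGNNNNNCC on either strand.
Nfkbia: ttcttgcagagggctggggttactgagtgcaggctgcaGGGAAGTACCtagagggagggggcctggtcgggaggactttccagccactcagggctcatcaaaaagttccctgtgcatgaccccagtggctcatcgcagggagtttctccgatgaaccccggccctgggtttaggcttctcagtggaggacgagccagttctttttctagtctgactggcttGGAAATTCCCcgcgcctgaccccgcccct

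Nfkb2, with 9, 5 and 5 matches before its starts, and the first start of Tnfaip3, with 6, are not printed. Shorter stretches with 10 bases on each side of a match allow other members to be set beside Nfkbia, with a single stretch for each. They lie at chr11:23771041-23771071 on the minus strand for Rel, chr19:5637313-5637343 on the plus strand for Rela, chr10:19012033-19012063 on the minus strand for the second start of Tnfaip3, chr17:35202182-35202211 on the minus strand for Tnf and chr9:21015810-21015839 on the plus strand for Icam1.
Rel: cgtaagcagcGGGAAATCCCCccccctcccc
Rela: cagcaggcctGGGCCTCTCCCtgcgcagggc
Tnfaip3: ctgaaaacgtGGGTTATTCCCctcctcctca
Tnf: cttgatgcctGGGTGTCCCCaactttccaa
Icam1: cagcgaggcaGGACCACCCCtctctgccag

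All 10 windows of the 7 genes held the pattern, which was present in 45.8% of the 32851 RefSeq promoter windows of the same length. Matches were counted on both strands and may overlap, and a match describes letters, not binding. The core of the PU-box, the element bound by PU.1 and its relatives, was searched as GAGGAA on both strands. It was found before Rel and Tnf and in none of the other windows, against 23.3% of all windows.

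**Figure D5:**
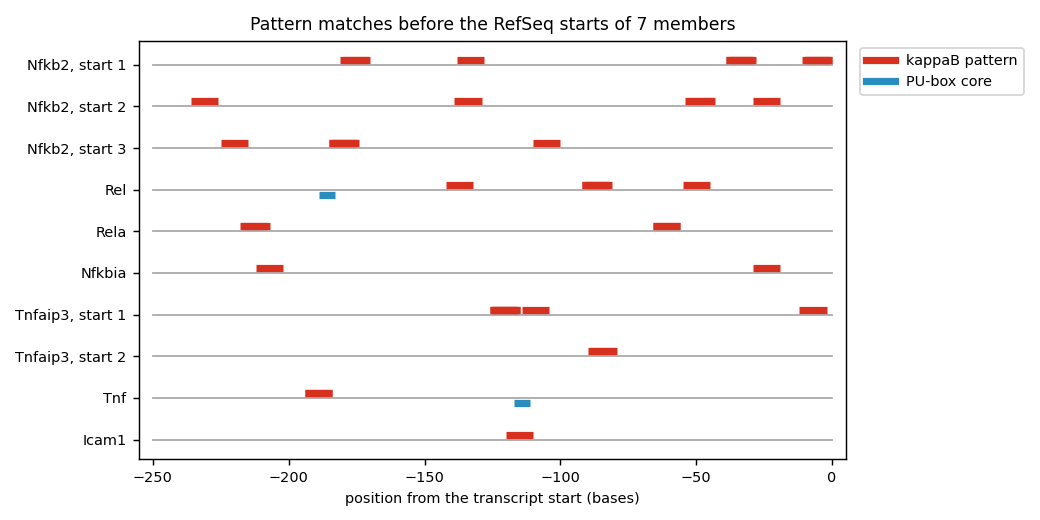
Matches to the kappaB pattern (red) and to the PU-box core (blue) in the 250 bases before each of 10 RefSeq transcript starts of 7 genes; the horizontal axis is the distance from the start in bases and each row is 1 start. Every row holds a red mark, and blue marks are found in the rows of Rel and Tnf.

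Tnf encodes the cytokine tumour necrosis factor, both an activator and a target of the pathway (chromosome 17, 35199381 to 35202007). It had 6.49, 1.02 and 0 CPM in Mdmx-Tg/Pu.1-URE-/-, 6.46, 2.82 and 11.5 CPM in Pu.1-URE-/-, 0.52, 0 and 0 CPM in Mdmx-Tg libraries, and 1.42, 0 and 0.70 CPM in Wild-type libraries. Each Pu.1-URE-/- library was above each Wild-type library, and the Mdmx-Tg/Pu.1-URE-/- libraries ran over 0 to 6.49 CPM, overlapping all other genotypes. The 0 reads of 4 libraries allow up to 0.0538 to 0.0595 CPM. The log2 change was 3.29 (SE 2.36) in Pu.1-URE-/- against Wild-type, with an adjusted p of 0.512 from edgeR. For element loss over both backgrounds it was 3.57 with an interval of -0.16 to 7.29 and an adjusted p of 0.206 from edgeR, where 11.9% of all genes were called. Without Mdmx-Tg 1 it was 6.62, with an adjusted p of 0.0893, and without Mdmx-Tg/Pu.1-URE-/- 1 it was 2.38, with an adjusted p of 0.445, both from edgeR. The other Mdmx-Tg libraries had 0 reads, so the size of 6.62 depends on how the fit treats a group at 0. At 0 to 584 reads per library, Tnf had the widest intervals of the 10 genes.

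Markers of other cell types differed with element loss and stand here beside the Tnf values. In Pu.1-URE-/- against Wild-type, 7 of 8 granulocyte-monocyte progenitor markers and 8 of 8 tested neutrophil markers were called higher, against 4.71% of all genes called. All 8 progenitor markers had a positive log2 change. The 8 granulocyte-monocyte progenitor markers, all detected in every library, summed to 10219 to 29713 CPM in Mdmx-Tg/Pu.1-URE-/-, 27715 to 53306 CPM in Pu.1-URE-/-, 879 to 1682 CPM in Mdmx-Tg libraries, and 1288 to 2571 CPM in Wild-type libraries. Of the 10 neutrophil markers, 3 to 9 were detected per library, with sums of 24047 to 28586 CPM in Mdmx-Tg/Pu.1-URE-/-, 25252 to 93478 CPM in Pu.1-URE-/-, 3.30 to 18.1 CPM in Mdmx-Tg libraries, and 8.11 to 16.6 CPM in Wild-type libraries. Mmp8 was at 0 in all libraries of Mdmx-Tg/Pu.1-URE-/-, Pu.1-URE-/- and Mdmx-Tg. The monocyte and macrophage markers, 4 to 8 of 8 per library, summed to 381.3 to 841 CPM in Mdmx-Tg/Pu.1-URE-/-, 636 to 752 CPM in Pu.1-URE-/-, 84.7 to 165 CPM in Mdmx-Tg libraries, and 73.4 to 521 CPM in Wild-type libraries, and the defining markers Csf1r and Adgre1 were at 0 in all Pu.1-URE-/- libraries. Ly6c2 made up most of this sum in the Pu.1-URE-/- libraries, with 646 of 662 CPM in Pu.1-URE-/- 1, and in Pu.1-URE-/- against Wild-type only 2 of the 7 tested markers of the list had a positive log2 change, with a median of -1.62. The sums of the T cell and NK cell list were 1572 to 3416 CPM in Mdmx-Tg/Pu.1-URE-/-, 2584 to 3962 CPM in Pu.1-URE-/-, 206 to 315 CPM in Mdmx-Tg libraries, and 107 to 273 CPM in Wild-type libraries, with 4 to 6 of 8 markers detected. Nkg7 alone carried this sum, with 3942 of 3962 CPM in Pu.1-URE-/- 1, while Cd3e, Cd3g, Cd4 and Cd8a were at or near 0 and Trac was at 0 throughout. The part of these cells in the Tnf values was not tested.

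Icam1 encodes an adhesion molecule on the cell surface that binds leukocyte integrins (chromosome 9, 21015985 to 21028817). Its level was 17.6, 12.3 and 32.5 CPM in Mdmx-Tg/Pu.1-URE-/-, 4.01, 19.6 and 14.7 CPM in Pu.1-URE-/-, 15.5, 30.3 and 23.3 CPM in Mdmx-Tg libraries, and 23.4, 12.4 and 13.6 CPM in Wild-type libraries. All genotypes overlapped. For the transgene over both backgrounds its log2 change was 0.59, with an interval of -0.28 to 1.47 and an adjusted p of 0.504 from edgeR.

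The rest of the pathway was followed through 79 listed genes, 70 of which were tested. In Pu.1-URE-/- against Wild-type 1 rose and 1 fell, together 2.86% of those tested against 4.71% of all genes. The counts were also 1 and 1 in Mdmx-Tg/Pu.1-URE-/- against Mdmx-Tg and in Mdmx-Tg/Pu.1-URE-/- against Wild-type, with Vcam1 higher and Ccl3 lower in each. For element loss over both backgrounds 5 rose and 4 fell, 12.9% against 11.9% of all genes, and in Mdmx-Tg against Wild-type, in Mdmx-Tg/Pu.1-URE-/- against Pu.1-URE-/-, for the mean effect of the transgene and for the interaction none of the 70 was called. The median log2 change of the 70 was 0.17 in Pu.1-URE-/- against Wild-type and 0.15 for element loss over both backgrounds, against medians of -0.03 and 0.00 over all genes.

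Vcam1, an adhesion molecule and NF-kappaB target that binds integrins of blood cells, rose most of the 70. It averaged 1901 ± 857 CPM in Pu.1-URE-/- and 5.76 ± 4.08 CPM in Wild-type libraries (SD, n = 3 each), a 329-fold difference with an adjusted p of 0.000581 from edgeR. It averaged 619 ± 393 CPM in Mdmx-Tg/Pu.1-URE-/- and 5.37 ± 3.36 CPM in Mdmx-Tg libraries (SD, n = 3 each), a 115-fold difference with an adjusted p of 0.00213 from edgeR. Each library with element loss was above each library without it, and the calls held under all alternatives, including without each library in turn. The 6 endothelial and stromal markers, of which 2 to 4 were detected per library, summed to 78.6 to 155.9 CPM in Mdmx-Tg/Pu.1-URE-/-, 127 to 217 CPM in Pu.1-URE-/-, 28.5 to 50.7 CPM in Mdmx-Tg libraries, and 16.6 to 30.2 CPM in Wild-type libraries, with Cdh5 and Cxcl12 at 0 throughout. Pecam1 carried this sum, with 216 of 217 CPM in Pu.1-URE-/- 1, and the median log2 change of the 4 tested markers was -0.46 in Pu.1-URE-/- against Wild-type and -1.25 for element loss over both backgrounds. Their part, and that of the progenitor and neutrophil markers above, in the Vcam1 values was not tested.

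Traf5, an adaptor of receptors of the tumour necrosis factor family, fell in Pu.1-URE-/- libraries to 0.89 ± 0.49 CPM, against 9.11 ± 1.75 CPM in Wild-type libraries (SD, n = 3 each). The log2 change was -3.35 (SE 0.60) with an adjusted p of 0.00904 from edgeR, and the adjusted p was 0.0501 without Pu.1-URE-/- 1. The Mdmx-Tg/Pu.1-URE-/- libraries, at 3.78 to 4.26 CPM, lay below the Mdmx-Tg libraries, at 7.07 to 17.3 CPM, without passing the test there (adjusted p 0.206 from edgeR). Over both backgrounds Traf5 fell by 2.43 on the log2 scale, with an adjusted p of 0.00341 from edgeR.

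A further 7 genes were called for element loss over both backgrounds. Those that rose were Tnfrsf1b, a receptor of tumour necrosis factor (log2 change 1.91), Irak3, an inhibitor of Toll-like receptor signalling (1.55), Tax1bp1, an adaptor of A20 (0.74), and Ikbkg, the regulatory subunit NEMO of the IkB kinase (0.57). Those that fell were Chuk, the kinase IKK-alpha (-0.84), Ltb, a ligand of the alternative pathway (-1.19), and the chemokine Ccl3 (-7.27). The size of the Ccl3 change depends on how the fit treats a group at 0, as Mdmx-Tg/Pu.1-URE-/- libraries had no read. Adjusted p-values for these 7 lay between 0.0126 and 0.0451 in edgeR. Leaving out each of the 12 libraries in turn kept the call in 12 of 12 fits for Ccl3, 6 for Tnfrsf1b, 6 for Chuk, 5 for Tax1bp1, 4 for Irak3, 3 for Ltb and 1 for Ikbkg. The Ccl3 call was lost with Jchain as a covariate and with 3 libraries left out together, and held in 22 of 24 settings in all. Of the same 24 settings the call held in 15 for Tnfrsf1b, 13 each for Chuk, Tax1bp1 and Irak3, 11 for Ltb and 5 for Ikbkg. Each of these other calls was lost with Jchain as a covariate and also with Y-linked expression as a covariate. Ccl3 had no read in Mdmx-Tg/Pu.1-URE-/- libraries and 10.3 ± 4.41 CPM in Mdmx-Tg libraries (SD, n = 3), at least 530-fold lower when 3 reads over the group are taken as the floor. Against the 5.90 ± 5.27 CPM of Wild-type libraries (SD, n = 3) it was at least 303-fold lower on the same floor. Both calls, at adjusted p-values of 0.0415 and 0.0408 from edgeR, held in only 1 of the 12 fits with a library left out. Of the 7 tested B cell and plasma cell markers, 0 had a positive log2 change for element loss over both backgrounds, with a median of -2.64. Their part in the Ltb fall was not tested.

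Likeness between genes was taken as Pearson's r of log2 CPM over the 12 libraries after each genotype mean was subtracted, over 9580 protein-coding genes. With 12 libraries and so many genes high values are common, and these are descriptions. The genes most like Nfkbia were Pkn3 (r = 0.94), H13 (0.92) and Junb (0.91). Junb, an immediate early gene, had 37.1, 6.01 and 3.57 CPM in Mdmx-Tg/Pu.1-URE-/-, 29.3, 63.2 and 58.2 CPM in Pu.1-URE-/-, 35.2, 7.59 and 15.7 CPM in Mdmx-Tg libraries, and 96.7, 27.4 and 12.1 CPM in Wild-type libraries. The genes most like Rela were Mgrn1, Taf1c and Dhx57 (r of 0.97 to 0.98), those most like Rel were Cracr2a, Zfp420 and Maml1 (0.94 to 0.96), those most like Nfkb1 were Micall1, Mtf2 and Pycard (0.88 to 0.93), and those most like Tnf were Gtf2ird2, Mmgt2 and Eogt (0.93 to 0.96). With a prior count of 0.5 in place of 2 the same 3 genes were named for 8 of the 10 members, and for Tnf, which has 4 libraries at 0, Peak1 took the place of Eogt. Among the 10 genes themselves r lay between -0.44 and 0.68 over 45 pairs, with a median of 0.17 and with Nfkbia and Tnfaip3 as the highest pair. By Spearman's rank correlation that pair was at 0.41 and did not lead, with Nfkb2 and Tnf at 0.64.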

How the data were processed

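The authors deposited 1 file for each library; per the file headers it lists expected counts from Salmon, TPM and lengths for every transcript. FastQC, Salmon and DESeq2 and the builds mm10 and GRCm38 stand in the submitters' processing notes; versions, settings and strand use are not given in the sources used here. Expected counts (35.3% of values not whole) were summed per gene with GENCODE M21 and rounded; 115995 of 116248 transcripts (99.8%) matched. The deposited TPM values were summed per gene for levels per length.

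Genes kept by filterByExpr (minimum count 10, minimum total 15) were scaled by TMM factors and fitted in edgeR 4.0.16 (R 4.3.3) with 1 mean per genotype over 12 libraries. Adjusted p-values are Benjamini-Hochberg over 15012 genes, with a threshold of 0.05. Labels do not say whether libraries of a genotype come from separate litters or preparations, so p-values measure the spread between these libraries. Alternatives used DESeq2 1.42.0, limma 3.58.1 (limma-voom), other filters and factors, covariates, a replicate block and each library left out. The fit was tested on simulated data. The 10 genes and all lists were chosen with earlier results of these data known. Named genes are the 10 genes, the called genes of the pathway lists and, for each of the 10, the 3 genes of highest likeness, of which some are printed. Reads per library ran over 47231506 to 55030235. Likeness used a prior count of 2 and genes of mean log2 CPM of at least 2. Figures used Python 3.11.15.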

Additional observations from a re-analysis of the deposited data

How the results depend on the processing

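Under 25 other settings (13 of method and 12 with a library left out) the count of called members remained 0 in every comparison; among 1970 values the lowest adjusted p was 0.0719 (Rela, mean effect of the transgene, log2 change -1.22, without Mdmx-Tg 3). The sign turned in 144 values, in 133 of them with both values within 1 SE of 0. Of the other 11, a term for classes of mouse number gave Nfkbiz -0.015 in Mdmx-Tg against Wild-type and 1.05 in Mdmx-Tg/Pu.1-URE-/- against Pu.1-URE-/-. These classes were cut from the mouse numbers for that fit, and the labels name no such series or batch. For the transgene over both backgrounds limma-voom gave Relb -1.18. Leaving out Mdmx-Tg/Pu.1-URE-/- 3, Mdmx-Tg 2 and Wild-type 1 together, in doubt from earlier work, gave Nfkb2 0.61 and Nfkbia 0.45 in Mdmx-Tg against Wild-type, and Nfkb2 0.76, Nfkbia 0.024 and Tnfaip3 1.57 in Mdmx-Tg/Pu.1-URE-/- against Wild-type. With single libraries left out, Nfkbia in Mdmx-Tg against Wild-type ran over -0.28 to 0.34, Tnfaip3 in Mdmx-Tg/Pu.1-URE-/- against Wild-type over -2.03 to 1.11 and Tnfaip3 for element loss over both backgrounds over -0.70 to 0.90. The cause of these turns was not tested.

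The count over all genes moved more. It was 707 genes in Pu.1-URE-/- against Wild-type (257 to 1881 under the alternatives), 348 in Mdmx-Tg/Pu.1-URE-/- against Mdmx-Tg (90 to 1289), 502 in Mdmx-Tg/Pu.1-URE-/- against Wild-type (147 to 1547), 1785 for element loss over both backgrounds (509 to 3018), and 0 in the other 4 comparisons, where DESeq2 called 329 in Mdmx-Tg against Wild-type, 329 in Mdmx-Tg/Pu.1-URE-/- against Pu.1-URE-/-, 1016 for the transgene over both backgrounds and 194 for the interaction; DESeq2 gave the highest count in all 8. Without Mdmx-Tg 3, edgeR called 109 genes in Mdmx-Tg against Wild-type and 447 for the transgene over both backgrounds. Whether equal replicate numbers pair the libraries was not settled. Deviations of same-numbered libraries correlated at -0.15 to 0.09 and those of others at -0.09 to 0.14. In all, 4 of 12 libraries correlated best with one of their own number. Between Pu.1-URE-/- and Mdmx-Tg/Pu.1-URE-/-, same-numbered libraries correlated at 0.056 to 0.086 and others at -0.051 to -0.017. Between Wild-type and Pu.1-URE-/-, same-numbered libraries correlated at -0.153 to -0.037 and others at -0.028 to 0.136. With the replicate block 690 genes were called in Pu.1-URE-/- against Wild-type and 0 members. Low counts of Tnf, Rel and Relb limit what these libraries can show.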

Other observations

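Transcript assignments within the feedback genes differed between libraries. Tnfaip3-202, the coding transcript from the inner start, took 73.3% of all Tnfaip3 reads and was at 0 in 1 library, while Tnfaip3-201, from the outer start, took 22.3% and was at 0 in 8 libraries. For Nfkbiz, the coding transcript Nfkbiz-204, which starts inside the gene, took 79.6% of the reads and was at 0 in 2 libraries. Relb reads went to Relb-201 for 57.0%, to Relb-203 for 20.0% and to Relb-202 for 16.9%, with these transcripts at 0 in 5, 9 and 11 libraries. Nfkbia was steadier: its coding transcript Nfkbia-201 took 71.4% to 90.1% per library, and the retained-intron transcript Nfkbia-202 the other 9.85% to 28.6%. These splits are Salmon's estimates and were not tested between genotypes.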
